A study of Mus musculus with 26 samples.

Results

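The H3K4 methyltransferase family was examined in left ventricle tissue of mice that lacked Ppp2r2a in cardiomyocytes. The genes were taken by name: Kmt2a, Kmt2b, Kmt2c, Kmt2d, Kmt2e, Setd1a and Setd1b, which are 7 of the 56941 genes listed and 7 of the 15357 genes abundant enough to be tested. The family was chosen by the CPM of Kmt2d, which was higher in knockout than in control males, so the genotype comparison in males describes these genes and tests nothing about them. The product of Ppp2r2a, B55α, directs the phosphatase PP2A to its substrates. The knockout mice (cKO, aMHC-CreTg/0-Ppp2r2aL/L) carried floxed Ppp2r2a alleles and a Cre transgene under the αMHC promoter, which is active in cardiomyocytes. The control mice (Ctrl, aMHC-Cre0/0-Ppp2r2aL/L) carried the same floxed alleles without Cre, and Cre-positive mice without floxed alleles were not analysed here. Each genotype was studied in both sexes, with 6 mice in either Ctrl group and 7 in either cKO group, and each library came from its own mouse. All were 12 to 16 weeks old and had received saline from an osmotic minipump for 2 weeks. The strain field names C57BL/6N, while the design text gives a mixed background of C57BL6/N (floxed mice) and FVB (Cre mice).

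Methylation of lysine residue K4 on histone H3 marks enhancers and promoters of active genes. The enzymes KMT2C and KMT2D place mainly the monomethyl mark at enhancers, KMT2A and KMT2B act at selected promoters including those of developmental genes, and SETD1A and SETD1B place most of the trimethyl mark at promoters. KMT2E is related by its SET domain but is known for binding the mark rather than for placing it. In the heart, KMT2D is best known from Kabuki syndrome, in which loss of one gene copy often causes congenital heart defects.

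Total counts were between 14.4 and 30.9, in units of 1e6 counts, and each member had between 181 (Setd1a) and 2641 (Kmt2d) counts in every library. Ppp2r2a fell in cKO mice of both sexes, by 1.40 on the log2 scale in males (adjusted p = 1.86e-06, edgeR) and by 1.58 in females (adjusted p = 1.9e-07, edgeR). Ctrl males 3 and 6 had 24.9 and 24.1 CPM (counts per 1e6 counts) of Ppp2r2a, against at least 41.9 CPM in the other Ctrl males and at most 16.2 CPM in the cKO males. The fits were therefore also made without these 2 mice. The 6 cardiomyocyte markers (Myh6, Myl2, Tnnt2, Tnni3, Actc1 and Ryr2) were all detected, and the 3 atrial markers summed to at most 2.31 CPM in any library. The 7 genes are measured in whole tissue, where fewer cells of a type and less RNA per cell cannot be told apart.

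Levels of different genes were compared as CPM per kb of annotated exon, averaged over all 26 mice. Kmt2e (ENSMUSG00000029004) had the highest level, at 6.21 ± 0.481 CPM per kb (SD, n = 26). Kmt2d (ENSMUSG00000048154) followed at 4.66 ± 0.578 CPM per kb and was below Kmt2e in 26 of 26 mice. Kmt2b (ENSMUSG00000006307) and Kmt2a (ENSMUSG00000002028) came next, at 3.79 ± 0.307 and 3.59 ± 0.296 CPM per kb. Their order was not stable from mouse to mouse, since Kmt2b was the higher in 17 of 26. Setd1b (ENSMUSG00000038384) was at 2.31 ± 0.288 CPM per kb and below Kmt2a in 26 of 26 mice. Kmt2c (ENSMUSG00000038056) was at 2.05 ± 0.156 CPM per kb, below Setd1b in 22 of 26 mice. Setd1a (ENSMUSG00000042308) was lowest, at 1.80 ± 0.202 CPM per kb, and was below Kmt2c in 23 of 26 mice. Of these neighbours, Kmt2a and Setd1b alone had ranges over mice that did not overlap, with 2.91 CPM per kb as the lowest Kmt2a value and 2.78 as the highest Setd1b value. The order of the mean levels thus put the enhancer enzyme Kmt2d well above its paralog Kmt2c, and both SETD1 genes near the bottom.

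Annotated overlaps make some of these levels uncertain. More than any other member, Setd1a shares its exons with another gene: 3523 bases, 51.9% of its exon length, also belong to Gm49388 on the same strand, and how the authors' counting treated such reads is not given in the sources used here. Kmt2e shares 9.31% of its exon length with Srpk2 on the opposite strand, Kmt2a 2.27% with the antisense transcript AC061963.1, and Kmt2c 1.35% with Gm42585. The libraries were stranded, but whether the counting used strand is not given in the sources used here. Kmt2b, Kmt2d and Setd1b share no exon bases with another annotated gene.

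In males, Kmt2d, the enhancer monomethyltransferase, stood out by selection. The 6 Ctrl males ranged from 75.1 to 88.0 CPM with a median of 81.6 CPM. The 7 cKO males ranged from 94.0 to 119.7 CPM with a median of 100.6 CPM. Every cKO male was above every Ctrl male, so the groups did not overlap. The group means were 81.5 ± 4.71 CPM (SD, n = 6) and 102.1 ± 8.80 CPM (SD, n = 7). The fitted log2 fold change was 0.32 (SE 0.06), or 25.2% higher in cKO. This was the difference by which Kmt2d was chosen. Non-overlapping groups with the higher level in cKO males occurred for 63 of 15357 genes, or 0.41%.

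The start of Kmt2d is shown together with that of Kmt2c, because these paralogs are assigned the same enhancer role but had the largest and the smallest fold change of the family in males. Each line gives the 250 bases before the annotated start from RefSeq (GRCm38.p6), read 5′ to 3′ on the minus strand, with GC boxes (GGGCGG on either strand, so also CCGCCC) in capitals. The Kmt2d window is chr15:98871206-98871455 and the Kmt2c window is chr5:25498784-25499033.
Kmt2d: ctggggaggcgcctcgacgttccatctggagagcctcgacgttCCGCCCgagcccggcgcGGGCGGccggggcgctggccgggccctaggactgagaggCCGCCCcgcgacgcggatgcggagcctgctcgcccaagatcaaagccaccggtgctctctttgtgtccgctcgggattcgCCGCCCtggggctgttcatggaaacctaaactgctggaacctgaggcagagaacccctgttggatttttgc
Kmt2c: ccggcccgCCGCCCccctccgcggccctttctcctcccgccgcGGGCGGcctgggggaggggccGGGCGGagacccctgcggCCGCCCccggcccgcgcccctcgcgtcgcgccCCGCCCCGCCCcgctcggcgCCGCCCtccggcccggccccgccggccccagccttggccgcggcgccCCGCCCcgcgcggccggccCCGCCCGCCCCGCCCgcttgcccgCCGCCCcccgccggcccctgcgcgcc
The Kmt2d window held 26 CG dinucleotides and 4 GC boxes. The Kmt2c window held 48 CG dinucleotides and 12 GC boxes, some of which overlap each other. Over 32851 promoter windows of the same length the median was 6 CG dinucleotides and 32.7% held a GC box. As many CG dinucleotides as in Kmt2d were found in 9.59% of windows, and as many as in Kmt2c in 0.186%. RefSeq windows were matched for 4 of the 7 genes, the others being Kmt2a (29 CG dinucleotides, 4 GC boxes) and Setd1a (25 CG dinucleotides, 0 GC boxes). Kmt2c thus had the most CG dinucleotides and GC boxes of the 4 windows, and a match of letters is a description only.

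The other members were less separated in males, and their values are likewise descriptions. Kmt2c, the other enhancer enzyme, ranged from 39.2 to 46.5 CPM in Ctrl males (median 42.7) and from 39.5 to 47.6 CPM in cKO males (median 44.3). Its log2 fold change was 0.04 (SE 0.06), the smallest in the family. Kmt2a, the founding member of the family and a regulator of Hox genes, had 48.6 to 64.4 CPM in Ctrl males (median 59.0) and 55.8 to 71.9 CPM in cKO males (median 62.7). Its log2 fold change was 0.12 (SE 0.06), and the groups overlapped. Kmt2b, the paralog of Kmt2a, had 33.0 to 35.3 CPM in Ctrl males (median 33.4) and 34.3 to 38.9 CPM in cKO males (median 35.98). Although 7 of 7 cKO males were above the Ctrl mean, the groups overlapped and the log2 fold change was 0.09 (SE 0.04). The promoter trimethylases had similar fold changes, 0.20 (SE 0.08) for Setd1a and 0.20 (SE 0.09) for Setd1b. Kmt2e, whose product is known for binding the mark, had 54.3 to 66.1 CPM in Ctrl males (median 57.1) and 63.1 to 72.0 CPM in cKO males (median 67.0). A single Ctrl male, replicate 1, lay within the cKO range, and the log2 fold change was 0.19 (SE 0.05).

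**Figure D1:**
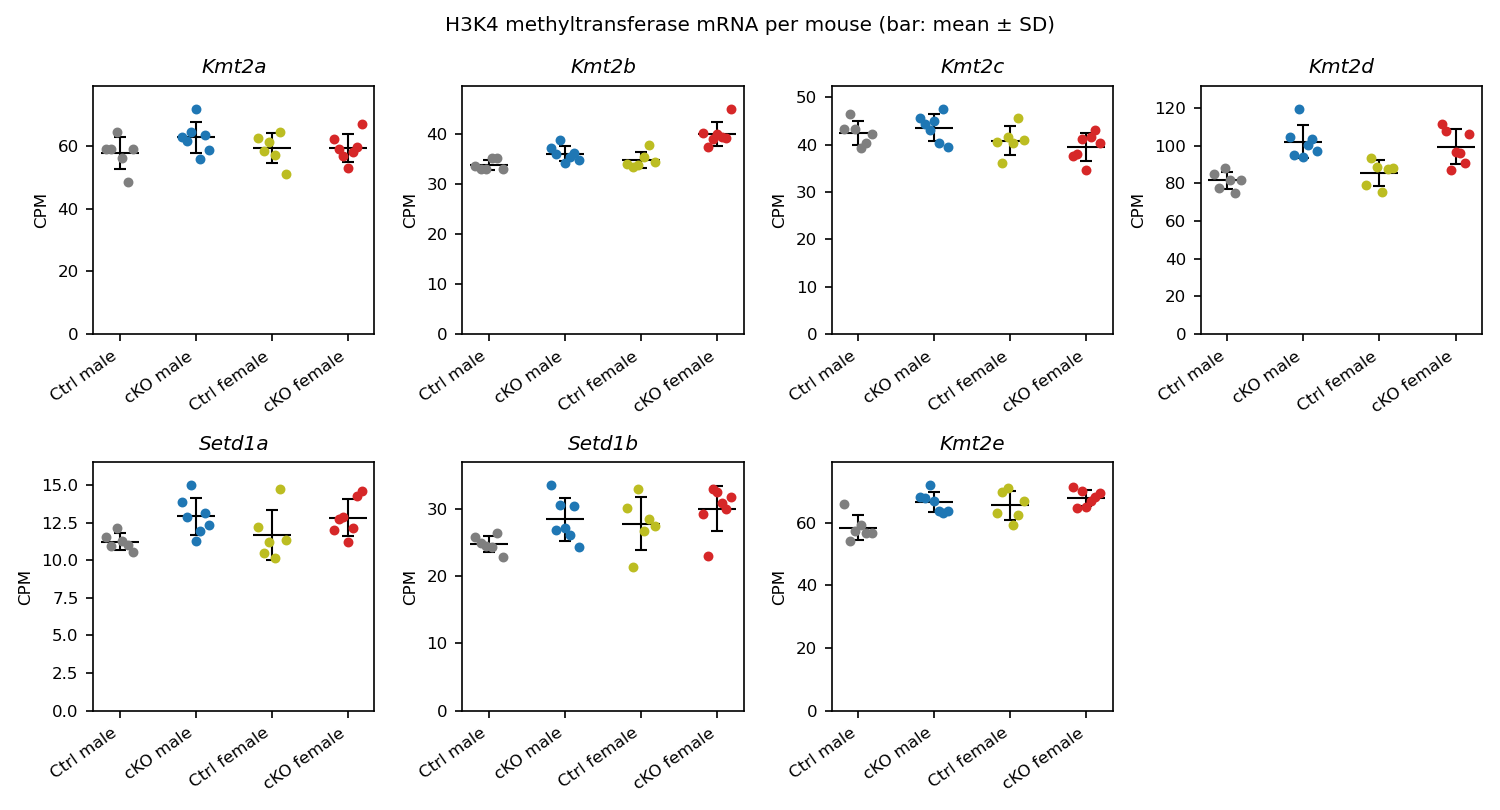
CPM of each H3K4 methyltransferase gene in each mouse, with a point per mouse and a bar for the mean ± SD of each group of 6 or 7 mice. Kmt2d in cKO males lies between 94.0 and 119.7 CPM, above all Ctrl males, whereas the cKO and Ctrl females overlap.

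In males 1 of the 7 genes, Kmt2d, was past an adjusted p of 0.05, where 0.182% of all tested genes were called as higher, and because the choice of Kmt2d fixed this count nothing is read from it. The log2 fold change was positive in 7 of 7 members (median 0.19), against 50.3% of all tested genes (median 0.00). Without Ctrl male 5, cKO male 5 or cKO male 6 the count was 0, and without Ctrl male 1 it was 2, with Kmt2e added. Calls over all genes in males went from 68 to 4, 6, 7 and 37 in these fits, in the same order. Without Ctrl males 3 and 6 together the count of members was also 0, with 7 calls over all genes, although the fold change of Kmt2d was then 0.35. The other members then had fold changes from 0.04 (Kmt2c) to 0.20 (Setd1a). Markers of the tissue's cells were also compared in males, and their summed ranges overlapped between genotypes. The cardiomyocyte markers summed to between 57758 and 64878 CPM in Ctrl males and to between 50461 and 60485 CPM in cKO males. In males 1 of the 6 had a positive log2 fold change (Ryr2, 0.03). Called as lower was 1 of the 6 (Tnni3, named after its values were seen, log2 fold change -0.24, edgeR adjusted p = 0.0316), where 40 of 15357 genes were called as lower. The 6 fibroblast markers summed to between 746 and 1150.2 CPM in Ctrl males and to between 891 and 1205 CPM in cKO males, with 6 of 6 positive and 0 of 6 called. In females the cardiomyocyte markers summed to between 58962 and 71058 CPM in Ctrl and to between 55148 and 66443 CPM in cKO mice. Of these 6 markers 0 had a positive log2 fold change in females (median -0.09), and 0 were called. Fibroblast markers were positive in 5 of 6 in females, with 0 called. The part of cell composition in the Kmt2d difference was not tested in either sex.

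The female mice took no part in choosing Kmt2d, so the genotype effect could be tested in them. The edgeR fit, however, took its spread from all 4 groups, including the males that chose Kmt2d. Only the exact permutation test below compared values of the females alone. No family member passed the test in females. Kmt2d and Kmt2b had the largest fold changes and were above the Ctrl mean in 7 of 7 cKO females each. The differences of Kmt2a, Kmt2c, Kmt2e, Setd1a and Setd1b were smaller than the SD between mice of either group. Over all genes, 5 of 15357 were called in females (0.0326%, with 0.026% called as higher).

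Kmt2d ranged from 75.3 to 93.7 CPM in Ctrl females (median 88.0) and from 87.1 to 111.7 CPM in cKO females (median 96.6). The ranges overlapped, and the 2 lowest cKO females lay below the highest Ctrl female. The cKO mean (99.5 ± 9.17 CPM, SD, n = 7) was 16.4% above the Ctrl mean (85.5 ± 6.87 CPM, SD, n = 6). The log2 fold change of 0.22 (SE 0.06) had an unadjusted p of 0.00181 and did not pass the adjustment over all genes (edgeR adjusted p = 0.536). An exact two-sided permutation test of mean log2 CPM over all 1716 splits of the 13 females gave a difference of 0.22 and p = 0.0117, for this gene alone and with no adjustment for other genes. The same exact test gave p between 0.00433 and 0.0303 when any of the 13 females was left out.

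Kmt2b, which acts at developmental promoters, had the smallest p of the family in females. The Ctrl females ranged from 33.6 to 37.8 CPM (median 34.3) and the cKO females from 37.4 to 45.2 CPM (median 39.5). A single Ctrl female, replicate 5, was above the lowest cKO female, and all other cKO values were above all other Ctrl values. The cKO mean was 40.1 ± 2.42 CPM (SD, n = 7) against a Ctrl mean of 34.9 ± 1.59 CPM (SD, n = 6). The fitted log2 fold change was 0.20 (SE 0.04). At an unadjusted p of 8.11e-05 it still missed the threshold over all genes (edgeR adjusted p = 0.138), and DESeq2's Wald test did call it.

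The remaining members were closer together in females. Setd1a had a log2 fold change of 0.14 (SE 0.08, adjusted p = 0.962) and Setd1b of 0.11 (SE 0.09, adjusted p = 0.975). Kmt2e averaged 65.5 ± 4.64 CPM over 6 Ctrl and 67.9 ± 2.61 CPM over 7 cKO females (± SD), with a log2 fold change of 0.05 (SE 0.05, adjusted p = 0.975). Kmt2a was at 59.2 ± 4.76 and 59.4 ± 4.42 CPM, with a log2 fold change of 0.00 (SE 0.06, adjusted p = 1.0). Kmt2c was the 1 member lower in cKO, with a log2 fold change of -0.05 (SE 0.06, adjusted p = 0.982). In all, 0 of 7 members passed by edgeR's quasi-likelihood test, 1 by DESeq2, and 2 (Kmt2b and Kmt2d) had an unadjusted p under 0.05, where 2.73% of all genes did so as higher. The median fold change of the 7 was 0.11, with 6 positive, against a median of 0.00 and 51.1% positive over all tested genes.

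The genotype effect was next compared between the sexes. The difference in log2 fold change, female minus male, was -0.10 (SE 0.09, adjusted p = 0.999) for Kmt2d, which is a description because the males chose it. For Kmt2b it was 0.11 (SE 0.06, adjusted p = 0.999) and for Kmt2e -0.13 (SE 0.07, adjusted p = 0.999). By edgeR 0 of 7 members passed and 0 had an unadjusted p under 0.05, while 0 of all 15357 genes passed (0%) and 608 (3.96%) had an unadjusted p under 0.05. No member was therefore shown to respond differently in males and females, and none was shown to respond alike. The DESeq2 and voom fits also called 0 members, as did the fit without Ctrl males 3 and 6.

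Sex differences within a genotype were small for the family. In Ctrl mice 0 of 7 members passed, where 0.638% of all genes were called. Kmt2e had the smallest p, with 58.4 ± 4.07 CPM in males and 65.5 ± 4.64 CPM in females (SD, n = 6 each), a log2 fold change, female against male, of 0.16 (SE 0.05, adjusted p = 0.135). That gene passed when Ctrl male 1, the highest of the Ctrl males, was left out (adjusted p = 0.0434). Without Ctrl males 3 and 6 its fold change was 0.15 (adjusted p = 0.408), 0 members passed, and calls over all genes went from 98 to 40. Kmt2d was at 81.5 and 85.5 CPM in Ctrl males and females, a log2 fold change of 0.07 (SE 0.07). In cKO mice 1 of 7 passed, where 2.7% of all genes were called and 1.43% called as higher. This was Kmt2b, at 36.2 ± 1.55 CPM in males and 40.1 ± 2.42 CPM in females (SD, n = 7 each), higher in females by 0.15 on the log2 scale (SE 0.04, adjusted p = 0.0483). The ranges, 34.3 to 38.9 CPM in males and 37.4 to 45.2 CPM in females, overlapped. This call was lost in 22 of the 26 fits that left out 1 mouse, with adjusted p from 0.0300 to 0.108, and held only without cKO male 3, Ctrl female 2, Ctrl female 5 or cKO female 2. Kmt2c had the lower mean in females, at 39.5 ± 2.92 against 43.6 ± 2.91 CPM (SD, n = 7 each), but its difference of -0.14 on the log2 scale (SE 0.06) did not pass (adjusted p = 0.162).

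Averaged over both sexes, the genotype effect includes the males that chose Kmt2d and is given as a description. The fold changes were 0.27 (SE 0.04) for Kmt2d, 0.17 (SE 0.06) for Setd1a and 0.15 for both Kmt2b (SE 0.03) and Setd1b (SE 0.06). They were 0.12 (SE 0.03) for Kmt2e, 0.06 (SE 0.05) for Kmt2a and -0.01 (SE 0.04) for Kmt2c. Kmt2d and Kmt2b were past the threshold (2 of 7, all genes 1.33%, called as higher 0.469%). Both were so in each of the 26 fits that left out 1 mouse, in which Kmt2e was added without Ctrl male 1 and Setd1a without Ctrl female 5. Both also passed without Ctrl males 3 and 6, with 0.29 (adjusted p = 0.00631) for Kmt2d and 0.14 (adjusted p = 0.0419) for Kmt2b.

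The family's transcripts are long, and fold changes in these libraries moved with transcript length. The longest annotated transcripts measured 19.8 kb for Kmt2d, 16.5 kb for Kmt2a, 15.0 kb for Kmt2c, 8.86 kb for Setd1b, 8.47 kb for Kmt2b, 7.32 kb for Kmt2e and 6.49 kb for Setd1a. When tested genes were split by length into 10 bins of equal size, the first 6 of these fell in the longest bin, which starts at 6.64 kb. Kmt2d lies at the 99.9 percentile of length. In males the median log2 fold change of a bin went from -0.06 in the shortest to 0.08 in the longest, where 75.0% of 1510 genes were positive. In females it was -0.00 in the shortest, lowest in the next (-0.02) and 0.02 in the longest, and 59.4% of the longest bin were positive. Against those medians of the longest bin, the family's own medians were 0.19 in males and 0.11 in females.

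The trend was also seen library by library. For each library, Spearman's rho was taken across genes between transcript length and the deviation of log2 CPM from the mean of all libraries. It lay between 0.0702 and 0.184 (median 0.111) in the 7 cKO males and between -0.174 and 0.0869 (median -0.0530) in the 6 Ctrl males. In Ctrl females it lay between -0.162 and 0.0871 (median -0.0943) and in cKO females between -0.163 and 0.0817 (median -0.00946). The cKO males were thus the only group in which every library leaned towards long transcripts. Genes are not independent replicates, and each rho describes 1 library.

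**Figure D2:**
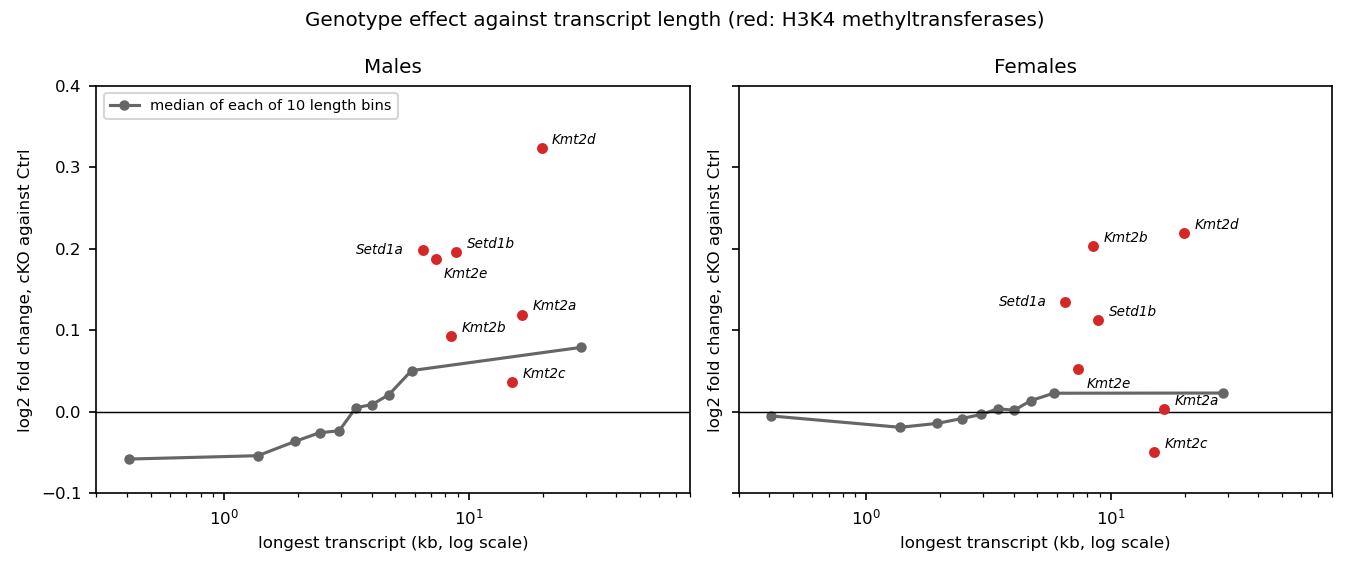
Log2 fold change of cKO against Ctrl (vertical axis) by length of the longest transcript (horizontal axis, log scale) in males and females, with red points for the 7 H3K4 methyltransferases and grey points for the median of each of 10 length bins of tested genes. The grey medians of the shortest and the longest bin are -0.06 and 0.08 in males and -0.00 and 0.02 in females, and Kmt2c (0.04 in males, -0.05 in females) lies below the median of the longest bin, its own, in both sexes.

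When a trend in length and GC content was fitted to each library and removed, the fold changes of all 7 members moved down in both sexes. Part of this was shared by all tested genes. Their median log2 fold change went from 0.00 to -0.02 in males, and from 0.00 to -0.01 in females and on the average of the sexes. Kmt2d went from 0.32 to 0.17 in males (SE 0.06) and from 0.22 to 0.16 in females (SE 0.06, adjusted p = 0.834). Its difference between the sexes was then -0.01 (SE 0.09). The exact permutation test in females gave a difference of 0.16 and p = 0.0606 after the correction. Kmt2b went from 0.09 to -0.02 in males and from 0.20 to 0.14 in females (SE 0.05, adjusted p = 0.695). Its difference between the sexes went from 0.11 to 0.17 (SE 0.06) and did not pass (unadjusted p = 0.0139, edgeR adjusted p = 0.9995). It was the 1 of 7 members with an unadjusted p under 0.05 there, as were 578 of 15357 genes. Kmt2e kept 0.12 (SE 0.05) in males and 0.02 (SE 0.05) in females. Kmt2c was at -0.07 (SE 0.05) in males and -0.09 (SE 0.05) in females, negative in both. No member passed in males, in females or on the average of the sexes after this correction, where Kmt2d had 0.16 (SE 0.05). The corrected fold changes of Kmt2d were thus close in the 2 sexes and the largest of the family in each. In males this is a description, because the males chose Kmt2d. In females the 0.16 (SE 0.06) of Kmt2d was not clearly apart from the 0.14 (SE 0.05) of Kmt2b. The correction also moved the calls over all genes, from 28 higher and 40 lower to 5 higher and 24 lower in males, and from 72 higher and 133 lower to 25 higher and 145 lower on the average of the sexes. How much of the remaining difference comes from length was not tested.

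**Figure D3:**
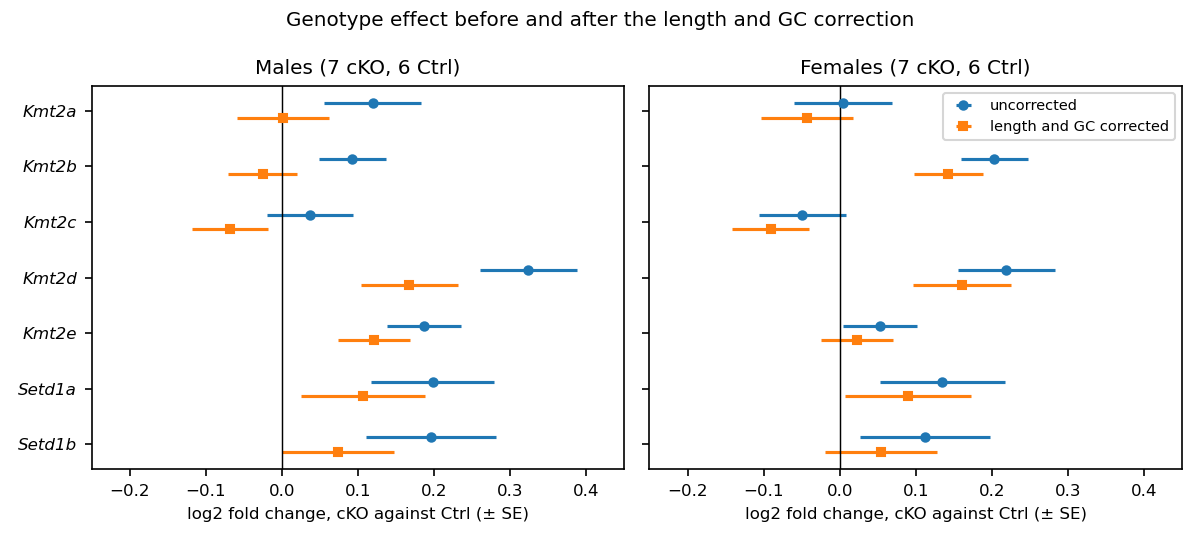
Log2 fold change of cKO against Ctrl for each gene, with its SE, before (blue circles) and after (orange squares) removal of each library's trend in length and GC content, in males and in females. Kmt2d goes from 0.32 to 0.17 in males and from 0.22 to 0.16 in females.

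KMT2A, KMT2B, KMT2C, KMT2D, SETD1A and SETD1B work in complexes built on a shared core, whose genes were measured alongside theirs. WDR5 bridges the enzyme to its partners, RBBP5 and ASH2L stimulate the catalytic domain, and DPY30 binds ASH2L. None of these 4 genes was called in any comparison, and 1 of the 4 had a positive fold change in each sex, Rbbp5 in males and Dpy30 in females. In males the log2 fold changes were -0.12 (SE 0.06) for Wdr5, 0.02 (SE 0.07) for Rbbp5, -0.04 (SE 0.06) for Ash2l and -0.14 (SE 0.06) for Dpy30. In females they were -0.03 (SE 0.06), -0.01 (SE 0.07), -0.05 (SE 0.06) and 0.03 (SE 0.06) in the same order. The unadjusted p in males was 0.0447 for Wdr5 and 0.0221 for Dpy30, and neither passed the adjustment (adjusted p = 0.362 and 0.278).

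Of the partners particular to the KMT2C and KMT2D complexes 0 were called for genotype, but the demethylase subunit differed by sex. KDM6A (UTX), encoded on the X chromosome, removes methyl groups from residue K27 of histone H3, and UTY is its Y-linked relative. Kdm6a ranged from 12.3 to 15.0 CPM in Ctrl males (median 14.2) and from 21.8 to 27.2 CPM in Ctrl females (median 24.8), with no overlap. It was higher in females by a log2 fold change of 0.85 (SE 0.09, adjusted p = 1.89e-07) in Ctrl mice and 0.82 (SE 0.08, adjusted p = 8.22e-08) in cKO mice. Without Ctrl males 3 and 6 the difference in Ctrl mice was 0.82 (adjusted p = 1.1e-05). The genotype comparison gave 0.03 (SE 0.08) in males and 0.01 (SE 0.08) in females.

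Uty averaged 18.5 ± 2.20 CPM over 6 Ctrl and 20.1 ± 1.33 CPM over 7 cKO males (± SD) and had 0 counts in every female. With 3 counts per library as the floor in females, the mean of all males was at least 92.5-fold higher. Among Ctrl mice the sum of Kdm6a and Uty averaged 32.3 ± 2.79 CPM over 6 males and 24.8 ± 1.78 CPM over 6 females (± SD), so that males had the larger sum although females had more Kdm6a. In cKO mice the sums were 34.2 ± 2.64 CPM in males and 24.9 ± 2.52 CPM in females (SD, n = 7 each). Paxip1, encoding the scaffold protein PTIP, had log2 fold changes with genotype of 0.10 (SE 0.07) in males and -0.05 (SE 0.07) in females. Ncoa6, encoding a nuclear receptor coactivator, had 0.12 (SE 0.06) in males and -0.10 (SE 0.06) in females, a difference of -0.22 (SE 0.09) with an unadjusted p of 0.0197 that did not pass (adjusted p = 0.999). Pagr1a had at most 2 counts in any library and was not tested.

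Of the 6 genes for enzymes that remove H3K4 methylation, 0 were called for genotype in males (0.443% of all genes) and 2, Kdm5c and Kdm5d, differed by sex in Ctrl and in cKO mice. Kdm1a, Kdm1b, Kdm5a and Kdm5b were not called between the sexes. KDM5C and KDM5D remove tri- and dimethyl marks and are encoded on the X and Y chromosomes. Among Ctrl mice Kdm5c averaged 47.2 ± 3.34 CPM over 6 males and 75.0 ± 2.32 CPM over 6 females (± SD), with a log2 fold change of 0.67 (SE 0.06, adjusted p = 4.2e-08). Without Ctrl males 3 and 6 it was 0.70 (adjusted p = 5.88e-07). In cKO mice it was 0.66 (SE 0.06, adjusted p = 9.06e-09). Kdm5d averaged 16.9 CPM over the 13 males and had 0 counts in every female. This male mean was at least 80.6-fold above the same floor of 3 counts.

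**Figure D4:**
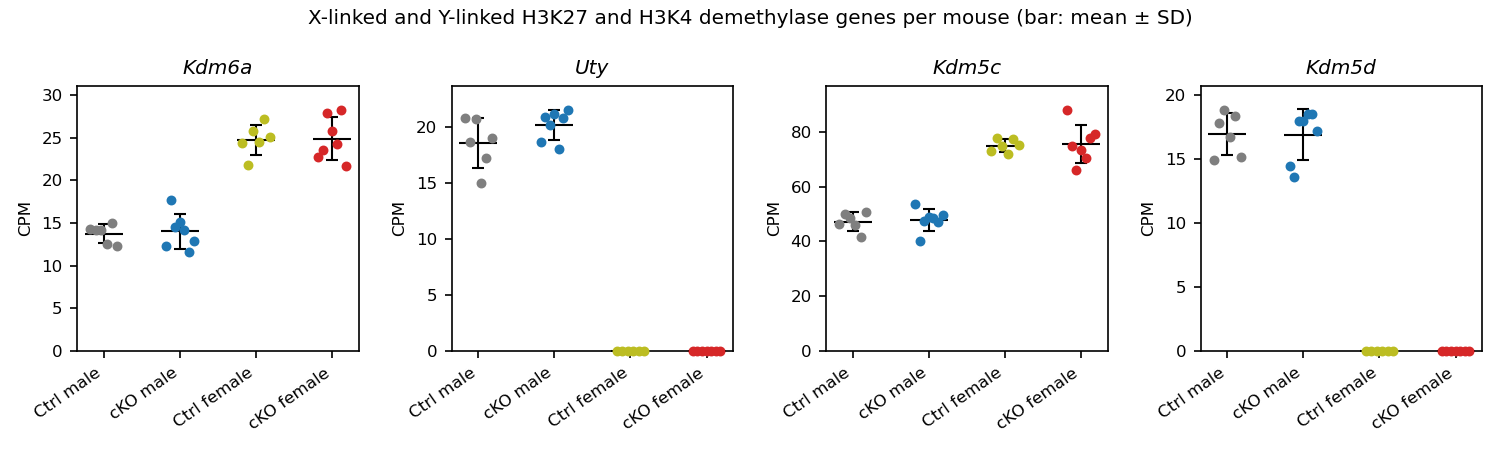
CPM per mouse of the X-linked genes Kdm6a and Kdm5c and of the Y-linked genes Uty and Kdm5d in the 4 groups, with bars for mean ± SD. Females lie above males for Kdm6a and Kdm5c in both genotypes, and Uty and Kdm5d are at 0 in all females.

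Other lists gave few calls. Of 5 further genes assigned H3K4 methyltransferase activity, Smyd1, a heart and skeletal muscle enzyme, fell on the average of the sexes. It was at 613 ± 48.7 and 506 ± 54.5 CPM in Ctrl and cKO males (SD, n = 6 and 7) and at 552 ± 59.4 and 499 ± 42.7 CPM in Ctrl and cKO females (SD, n = 6 and 7). The average log2 fold change was -0.21 (SE 0.05, adjusted p = 0.0377). The call was lost in 12 of the 26 fits that left out 1 mouse (without Ctrl males 1, 2, 3 or 5, cKO males 2, 3 or 6, Ctrl females 1, 3 or 4, or cKO females 5 or 7), with adjusted p up to 0.0738, and kept without Ctrl males 3 and 6 (adjusted p = 0.0466). The cardiomyocyte markers moved in the same direction, with 0 of 6 log2 fold changes positive on the average of the sexes. Their part in this result was not tested.

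Setd7, a monomethyltransferase, was lower in cKO females than in cKO males, at 78.1 ± 6.10 against 90.7 ± 5.99 CPM (SD, n = 7 each), a difference of -0.22 on the log2 scale (SE 0.06, adjusted p = 0.032). Between the sexes in cKO mice 2.7% of all genes were called. Without cKO males 1, 4 or 5 or cKO females 2, 4 or 7 Setd7 did not pass, with adjusted p up to 0.0771. Of the partners of KMT2A and KMT2B (Men1, Psip1, Hcfc1, Hcfc2 and Tasp1) 0 of 5 were called in any comparison, and of the SETD1 partners (Cxxc1, Wdr82, Bod1 and Bod1l) 0 of 4. The enhancer acetyltransferases Ep300 and Crebbp gave 0 of 2. Their log2 fold changes in males were 0.16 (SE 0.05) for Ep300 and 0.20 (SE 0.07) for Crebbp, within the range of the family. After the length and GC correction they lay between 0.07 and 0.09 in males. In females, before the correction, 1 of the 2 was positive, with values of -0.01 and 0.17. Of 16 methyltransferases for other histone residues 0 were called, and their median log2 fold change was 0.06 in males and 0.03 in females, against 0.00 over all tested genes in each sex. Since 0.443% of all genes were called in males, 0.0326% in females and 1.33% on the average of the sexes, counts of 0 in lists of this size are near the background and show nothing particular to these lists.

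Finally, variation between mice of the same group was compared. For each gene the deviation of log2 CPM from its group mean was taken in the 26 mice, and the 5 genes with the highest Pearson's r with Kmt2d were Cdc42bpb (0.769), Shank3 (0.764), Gatad2a (0.753), Cramp1 (0.748) and Myh7b (0.745). Within a sex these r ranged from 0.477 (Cdc42bpb in males) to 0.918 (Cdc42bpb in females). The median r over all other genes was -0.01. After the length and GC correction the leading genes were Tpm4 (0.834), Nedd9 (0.828), Rapgef3 (0.821), Plekhg1 (0.808) and Srsf6 (0.803), so that 0 of the 5 were shared. The earlier 5 nevertheless stayed high among 15356 genes. Their corrected r was 0.793 for Cdc42bpb (rank 6), 0.782 for Shank3 (rank 8) and 0.770 for Myh7b (rank 12). For Gatad2a it was 0.755 (rank 19) and for Cramp1 0.721 (rank 53). Values of 1 mouse come from 1 library, so these r also carry what its genes share through depth and length trend, and they are given as a description.

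Within the family and over all 26 mice, Kmt2e had the highest r with Kmt2d (0.476), ahead of Setd1a (0.315), Kmt2a (0.289) and Kmt2b (0.252), and Kmt2c (-0.160) and Setd1b (-0.124) the lowest. This order differed between the sexes, with 13 mice each. For Setd1a, r with Kmt2d was 0.826 in males, the highest there, and 0.0314 in females. For Setd1b it was 0.415 in males and -0.420 in females. For Kmt2e it was 0.495 in males and 0.466 in females, and for Kmt2c 0.0871 and -0.332. Whether these r differ between the sexes was not tested. Over the 21 pairs r was positive in 18, with a median of 0.252 and the highest value, 0.598, for Kmt2b with Setd1a. After the correction 15 pairs were positive and r ran from -0.413 (Kmt2d with Setd1b) to 0.572 (Kmt2c with Setd1a).

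**Figure D5:**
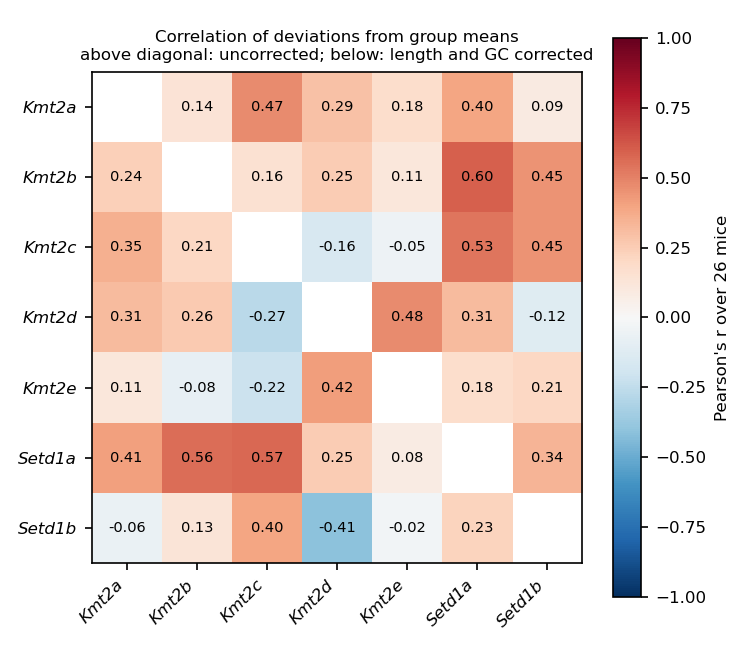
Pearson's r between members over 26 mice, computed on deviations of log2 CPM from group means, with uncorrected values above the diagonal and values after the length and GC correction below it. Kmt2d and Kmt2c have -0.16 above the diagonal, against 0.60 for Kmt2b and Setd1a.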

How the data were processed

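RNA from left ventricle tissue of 26 mice was sequenced as stranded, poly-A selected libraries, per the labels' protocols. The deposited matrix holds the authors' raw gene counts, with no normalization. FastQC 0.74, cutadapt 4.6, STAR 2.7.11a, HTSeq and the genome build GRCm39 are named in the submitters' processing notes. The annotation release and the strand setting of the counting are not given in the sources used here.

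Groups came from the sample titles, which also name the matrix columns. No within-group pair of the 72 agreed within sampling noise (chi-square per degree of freedom 7.79 to 36.4). Testing used edgeR 4.0.16 under R 4.3.3: filterByExpr with a minimum count of 10, TMM scaling, a mean for each of the 4 groups over 26 mice, robust quasi-likelihood F tests and Benjamini-Hochberg adjustment over 15357 genes, with a threshold of 0.05. The SE is the absolute log2 fold change over the root of F. CPM used TMM-scaled totals, and log2 CPM a prior count of 2. Transcript and exon lengths, GC content, chromosomes and overlaps came from GENCODE M21 (GRCm38) by gene ID, which matched 15092 genes (98.3%), so no coordinates of the files' build are printed. For the length and GC correction, each library's trend (natural splines in log length and in GC content, 4 degrees of freedom each) entered the model as an offset. The fit without this correction was also run on simulated counts with changes set in cKO females. Those counts held no length or GC trend, so the run cannot check the correction, and nothing is read from it here.

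Alternatives were DESeq2 size factors, the DESeq2 1.42.0 Wald test, voom with quality weights (limma 3.58.1), no filter, a filter at a mean of 5 CPM, a fit of the compared groups alone, the replicate number as a block, the correction with and without the block, and each mouse left out. Leaving out Ctrl males 3 and 6 together was chosen after seeing the data. Members and lists were chosen with earlier results of these data known. Genes named are the members, Ppp2r2a, the COMPASS core and KMT2C and KMT2D partners, other list genes past the threshold (at most 5 a list) and the 5 genes most like Kmt2d. Nsd1, Dot1l and Tnni3 were named after their values were seen.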

Additional observations from a re-analysis of the deposited data

Results flagged for a closer look

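In 28 combinations of member and group, the mouse farthest from the others was set against Dixon's 95% limit, which chance alone exceeds in about 1 group in 20. In 3 of them a mouse stood apart. Kmt2d in cKO male 3 was at 119.7 CPM, with the next cKO male at 104.8 CPM. Kmt2b in cKO female 7 was at 45.2 CPM, with the next at 40.3 CPM. Setd1b in cKO female 2 was at 23.0 CPM, below the next at 29.2 CPM. Without cKO male 3 the call of Kmt2d in males was kept, and without cKO female 7 or 2 no member was called in females.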

How the results depend on the processing

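The number of members called in males was 1 and became 2 with DESeq2's Wald test and with a mean of at least 5 CPM (Kmt2d and Kmt2e in each case). Calls over all genes then went from 68 to 358 and 164. The number of members became 0 with the length and GC correction, with that correction and the replicate block, and without Ctrl males 3 and 6. Over all genes 29, 18 and 7 were called there. With each mouse left out the number of members ranged from 0 to 2. In females it was 0, and 1 (Kmt2b) with DESeq2, where calls over all genes went from 5 to 9. Between the sexes in cKO mice it was 1 (Kmt2b) and 0 with DESeq2 size factors, no filter, only the groups compared, the replicate block, the correction with and without the block, and without Ctrl males 3 and 6. Calls over all genes lay between 213 and 416 in those settings, against 414. With each mouse left out the number of members was from 0 to 1. Between the sexes in Ctrl mice it was 0, and from 0 to 1 with each mouse left out. For the average of the sexes it was 2, and 1 without a filter and 0 with the correction, with or without the block. Calls over all genes went from 205 to 113 without a filter, and to 148 and 170 with the correction, with and without the block. The difference of Kmt2d in females fell to 0.16 with the correction and lay between 0.18 and 0.25 with a female left out. With the correction 1 of the methyltransferases for other residues was called between the sexes in cKO mice (Dot1l, 0.25, adjusted p = 0.0437) and 1 on the average of the sexes (Nsd1, -0.12, adjusted p = 0.0382). The cause of these changes was not tested. No called value reversed. Of 490 recomputed values of members, 434 kept their direction and side of the threshold or moved by less than their spread.

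The replicate numbers come from the titles. Of 37 same-numbered pairs between groups, 6 had deviations correlated above 0.1, with a mean of 0.0111 against -0.00172 for other pairs, so the numbers were not taken to pair the mice. Between Ctrl and cKO females the 6 same-numbered pairs had a mean of 0.118 (from -0.0969 to 0.404) against -0.0186 for other numbers, and not every pair was above 0.1. With the block, calls over all genes in females went from 5 to 3, and 0 members were called. With the replicate block Kmt2d had a log2 fold change of 0.32 in males and 0.22 in females.

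Over all genes, calls in males numbered 68, from 7 to 358 with other settings and from 4 (without Ctrl male 5) to 122 with a mouse left out. In females they numbered 5, and from 1 to 9 with other settings. Setd1a, with 181 to 366 counts a library, was the least precisely counted member.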
